A study of Mus musculus with 11 samples.

Results

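Transcript levels of 10 genes of the transforming growth factor β (TGF-β) pathway were examined in bulk RNA from 11 mouse pancreatic tumours. The genes were taken by symbol from the table of raw counts: the ligands Tgfb1, Tgfb2, Tgfb3 and Inhba, the matrix protein Ltbp2, the receptors Tgfbr1, Tgfbr2 and Tgfbr3, and the signal mediators Smad3 and Smad7. They are 10 of the 54232 gene identifiers listed, and all 10 were among the 16536 genes with enough counts to be tested.

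The question was how these genes differ between tumours grown in hosts with and without protein kinase N2 (PKN2). Tumours were started by injecting 1000 TB32048 cells into the pancreas of female C57BL/6 mice. TB32048 is a mouse pancreatic carcinoma line that came from a female animal, and its own Pkn2 gene is intact. All hosts carried RosaCreERT2, a Cre recombinase under a promoter active in nearly every cell, and all were given tamoxifen, which switches the Cre on. KO hosts were Pkn2 fl/fl (6 tumours, replicates A to F) and WT hosts were Pkn2 +/+ (5 tumours, replicates A to E). The deletion was thus present throughout the host and not in 1 stromal cell type, and each tumour mixes host cells with carcinoma cells that retain Pkn2. Pkn2 counts over the whole gene take in transcripts of those carcinoma cells and were not a check of the labels: they ranged from 80.1 to 108 CPM in KO and from 62.9 to 138 CPM in WT tumours (CPM, read counts scaled to equal library size by the TMM factors), with a log2 fold change of KO over WT of -0.002, or -0.46 against WT replicates D and E alone (edgeR, adjusted p = 0.996 and 0.131).

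TGF-β ligands are secreted in a latent form, bound to their own propeptide and to latent TGF-β binding proteins that anchor them in the matrix, and are released by integrins and proteases. Active ligand brings together the type II receptor TGFBR2 and the type I receptor TGFBR1, which phosphorylates SMAD2 and SMAD3; these enter the nucleus with SMAD4, and SMAD7 is induced in turn and shuts off the receptor. In pancreatic cancer the pathway is best known for growth arrest in epithelium and for turning fibroblasts and stellate cells into matrix-secreting myofibroblasts.

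The promoters of 4 members are shown because they span the range of expression among the genes: Tgfb1 and Tgfb2 as the ligands with the highest and lowest level per length, Tgfbr2 as a receptor, and Inhba as a member with widely spread levels. Each run is the 250 bases before the RefSeq transcription start, 5′ to 3′ on the gene's strand, on GRCm38.p6. Capitals mark the SMAD binding motif (CAGAC or GTCTG), the GC box (GGGCGG or CCGCCC) and the TATA sequence (TATAAA or TTTATA).
Tgfb1, chr7:25686752-25687001, plus strand: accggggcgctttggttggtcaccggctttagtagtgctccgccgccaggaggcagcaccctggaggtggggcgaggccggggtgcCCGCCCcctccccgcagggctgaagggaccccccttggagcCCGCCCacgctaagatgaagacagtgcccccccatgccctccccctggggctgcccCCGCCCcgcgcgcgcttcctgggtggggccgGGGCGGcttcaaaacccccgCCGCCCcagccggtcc
Tgfb2, chr1:186705990-186706239, minus strand: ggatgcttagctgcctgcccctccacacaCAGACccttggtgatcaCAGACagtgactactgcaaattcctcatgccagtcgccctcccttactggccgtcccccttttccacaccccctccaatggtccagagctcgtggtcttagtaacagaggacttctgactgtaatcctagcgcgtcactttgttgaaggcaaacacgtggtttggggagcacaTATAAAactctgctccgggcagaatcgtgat
Tgfbr2, chr9:116175364-116175613, minus strand: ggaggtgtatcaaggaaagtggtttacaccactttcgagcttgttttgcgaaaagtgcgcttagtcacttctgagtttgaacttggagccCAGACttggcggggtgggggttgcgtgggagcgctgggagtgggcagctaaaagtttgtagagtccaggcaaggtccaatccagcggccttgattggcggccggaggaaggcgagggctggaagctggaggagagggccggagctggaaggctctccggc
Inhba, chr13:16011601-16011850, plus strand: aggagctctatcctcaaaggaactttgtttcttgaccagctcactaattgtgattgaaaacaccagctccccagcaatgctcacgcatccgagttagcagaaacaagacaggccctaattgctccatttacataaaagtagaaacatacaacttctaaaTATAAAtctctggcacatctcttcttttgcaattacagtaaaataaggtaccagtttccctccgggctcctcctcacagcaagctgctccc
The Tgfb1 window was 75.2% G and C and held 5 GC boxes and neither of the other marked motifs. Tgfb2 had 2 SMAD binding motifs and 1 TATA sequence in 53.6% G and C, Tgfbr2 had 1 SMAD motif in 58.4%, and the Inhba window, at 43.2%, had 1 TATA sequence only. Over all 32851 promoter windows of the same length the median was 52.4% G and C, and 42.2% held a SMAD binding motif, 32.7% a GC box and 12.4% a TATA sequence, so none of these motifs is rare. Windows were at hand for 7 of the 10 members, and 4 of those 7 (Tgfb2, Tgfbr1 at the second of its 2 starts, Tgfbr2 and Ltbp2) held a SMAD motif. The SMAD palindrome GTCTAGAC, the AP-1 motif TGANTCA and the TEAD motif GGAATG, searched on both strands, occurred in none of these windows, against 0.167%, 6.75% and 12.6% of all windows.

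WT replicate B had the smallest library total, 16294128 counts, and WT replicate E the largest, 31121422, so that 3 counts correspond to 0.0964 to 0.184 CPM and every member was far above that floor in every tumour. Nuclear and mitochondrial ribosomal RNA took 0.308% to 0.739% of counts in KO tumours but 1.31%, 6.39%, 1.40%, 0.765% and 0.241% in WT replicates A to E. The trend of a library's deviation from the gene means with transcript length (Spearman's rho) was between 0.124 and 0.402 in KO tumours and was 0.323 and 0.438 in WT replicates D and E, whereas it was -0.540 for WT replicate A, -0.482 for B and -0.196 for C. These 3 WT libraries therefore stand apart from the other 8 by measures of library composition. Comparisons of KO with WT were made by edgeR's quasi-likelihood F-test, and p-values were adjusted by the Benjamini-Hochberg method over all 16536 genes.

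None of the 10 members passed an adjusted p of 0.05. The test called 3 of 16536 genes (0.0181%), Pcdhgb2, Irak3 and Igkv8-27, which were named after their values were seen. At an unadjusted p under 0.05 it took 1 of the 10 members, Tgfb3, against 24.0% of all genes. DESeq2 called 1 member, again Tgfb3, against 8.06% of the genes it gave an adjusted p. The log2 fold change of KO over WT was above 0 for 8 members and below 0 for Inhba and Smad7, with a median of 0.39 against -0.03 over all genes tested. In no member were the KO and WT tumours fully separated, compared with 3.60% of all genes. Beside these values stands the composition of the libraries: by ribosomal RNA share and length trend, only WT replicates D and E resemble the KO libraries. These 2 were not matched in tissue content: summed acinar cell markers stood at 12.9 CPM in D and 1700 in E, against 7.28 to 640 in KO tumours. With D and E as the only controls the log2 fold changes of Ltbp2, Tgfbr2, Smad3 and Smad7 turned to the other side of 0. They were -0.22 (SE 0.19), -0.20 (SE 0.18), -0.29 (SE 0.17) and 0.012 (SE 0.17). None of these had an unadjusted p under 0.05 in that fit (edgeR).

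**Figure D1:**
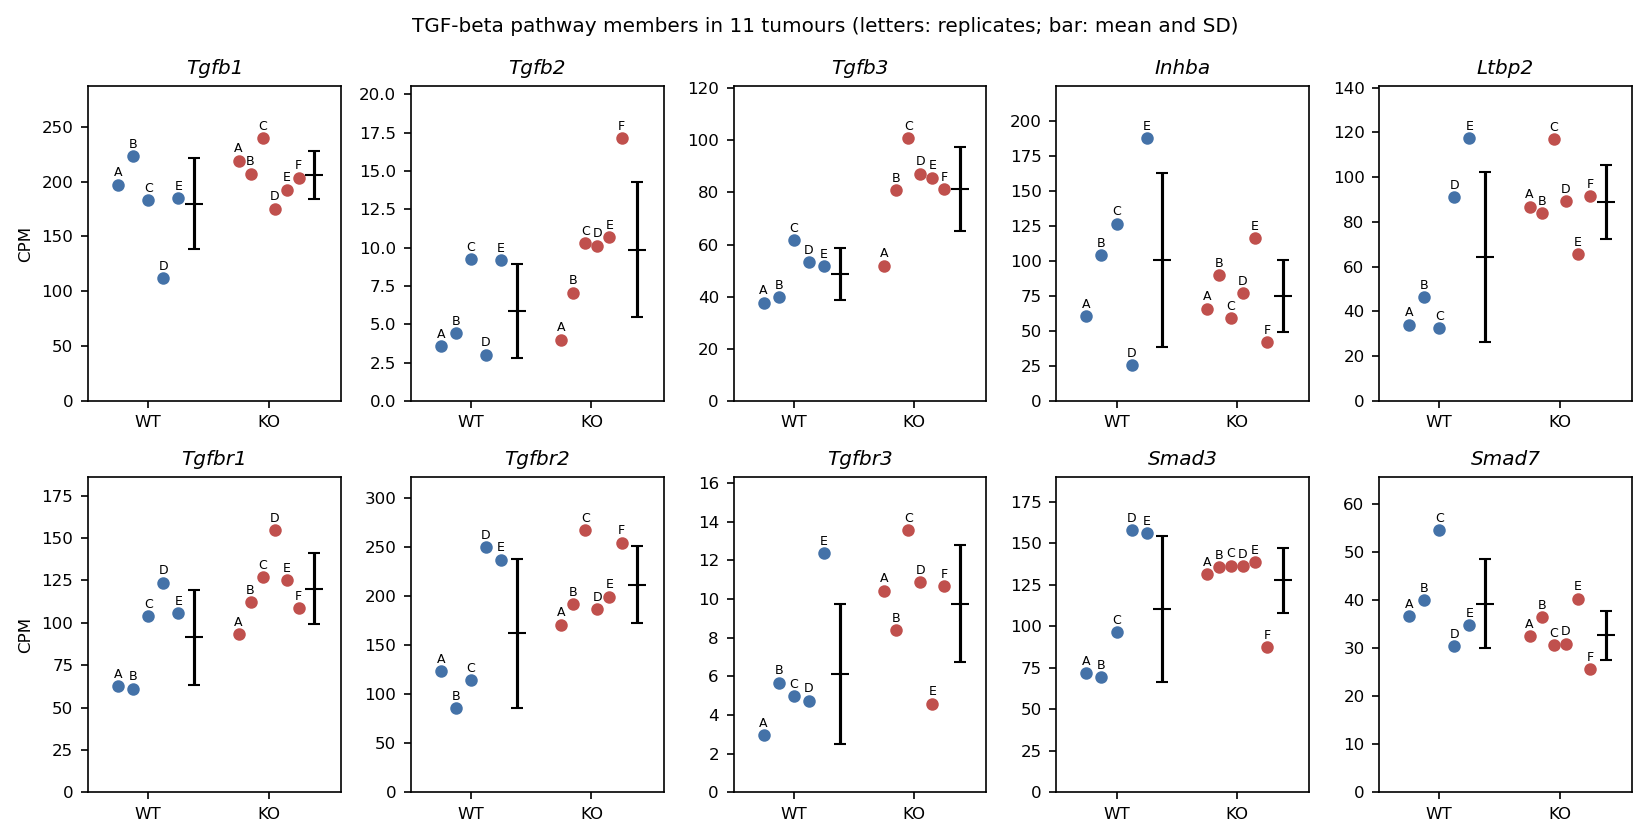
CPM of each member (vertical axis, linear, starting at 0) in each WT tumour (blue) and KO tumour (red), with letters for replicates and a black bar for the mean and SD of the group. Tgfb3 in KO replicates B to F lies above all 5 WT tumours, whereas Ltbp2, Tgfbr2 and Smad3 in WT replicates A to C lie below WT replicates D and E.

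Among the ligands, Tgfb3 (ENSMUSG00000021253, chromosome 12, 86056745 to 86079041, minus strand, protein coding), which encodes the TGF-β3 ligand of mesenchymal tissues, had the smallest p. Its level in the WT tumours A to E was 37.7, 39.9, 61.8, 53.1 and 51.7 CPM, and in KO tumours it ran from 51.9 CPM in replicate A through a median of 83.4 to 101 CPM in replicate C. KO replicate A lay inside the WT range, and the other 5 KO tumours exceeded the highest WT tumour. The group levels were 81.2 ± 16.1 CPM in KO (SD, n = 6) and 48.8 ± 9.97 CPM in WT (SD, n = 5), a 1.66-fold difference with a 95% interval from 1.25 to 2.20. The log2 fold change of 0.73 (SE 0.19) ranked 338 among all genes by p and missed the threshold after adjustment (edgeR, unadjusted p = 0.00182, adjusted p = 0.0888). It passed by DESeq2 (adjusted p = 0.0152) and by edgeR without WT replicate E (adjusted p = 0.0408, a fit that called 11.1% of all genes). With a covariate for the ribosomal RNA share the log2 fold change was 0.64 (edgeR, adjusted p = 0.266). Against WT replicates D and E alone it was 0.63 (edgeR, adjusted p = 0.183). Exons of Gm37804 and Gm48008 overlap Tgfb3 on the opposite strand, and the libraries were made with strand kept.

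Tgfb1 (ENSMUSG00000002603, chromosome 7, 25687002 to 25705077, plus strand, protein coding), the ligand most used to activate stellate cells in culture and made by many cell types, was the steadiest member in KO tumours. It measured 197, 223, 183, 112 and 185 CPM in WT replicates A to E and 175 to 239 CPM in KO tumours, with a median of 205. The groups overlapped, and WT replicate D was the one low tumour. The coefficient of variation was 10.7% in KO and 22.9% in WT, against medians over all tested genes of 18.6% and 38.4%. The log2 fold change was 0.20 (SE 0.18) with a 95% interval from -0.18 to 0.58 (edgeR, adjusted p = 0.505). It was 0.07 without WT replicate D and 0.48 against WT replicates D and E alone (edgeR, adjusted p = 0.252).

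Tgfb2 (ENSMUSG00000039239, chromosome 1, 186622792 to 186705989, minus strand, protein coding), the ligand that depends most on betaglycan for receptor binding, was scarce. WT tumours A to E had 3.56, 4.42, 9.24, 3.02 and 9.19 CPM, and KO tumours had 3.99 CPM in replicate A, a median of 10.2 and 17.1 CPM in replicate F. Of the KO tumours 4 lay above every WT tumour, and replicates A and B lay among them. The log2 fold change of 0.74 had an SE of 0.40, against 0.19 for Tgfb3, and did not pass (edgeR, adjusted p = 0.267).

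Inhba (ENSMUSG00000041324, chromosome 13, 16011851 to 16031621, plus strand, protein coding) encodes the subunit of activin A, a relative of TGF-β that also signals through SMAD2 and SMAD3. The values in WT tumours A to E were 60.5, 104, 127, 25.5 and 187 CPM, whereas KO tumours ran from 42.1 in replicate F through a median of 71.3 to 116 CPM in replicate E. The lowest and the highest tumour were both WT, so that the KO range lay inside the WT range. Its coefficient of variation in WT, 61.7%, was higher than that of 80.4% of tested genes. Between groups the log2 fold change was -0.43 (SE 0.40; edgeR, adjusted p = 0.532), and it was -0.07 without WT replicate E.

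Ltbp2 (ENSMUSG00000002020, chromosome 12, 84783212 to 84876532, minus strand, protein coding) encodes a microfibril protein of the latent TGF-β binding family that, unlike its relatives, does not bind latent TGF-β itself. Levels were 34.1, 46.5, 32.4, 91.1 and 117 CPM in WT replicates A to E, and 65.6 to 117 CPM with a median of 88.0 in KO tumours. WT replicates A, B and C lay below every KO tumour, and D lay within the KO range and E just above it. Its difference on the log2 scale was 0.47 (SE 0.32; edgeR, adjusted p = 0.384) and became 0.80 without WT replicate E and -0.22 against WT replicates D and E alone. D030025P21Rik overlaps it on the opposite strand.

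The type II receptor Tgfbr2 (ENSMUSG00000032440, chromosome 9, 116084293 to 116175360, minus strand, protein coding), which binds ligand first, showed the same split of the WT tumours. It stood at 124, 85.9, 114, 250.4 and 238 CPM in WT replicates A to E and at 171 to 268 CPM, median 196, in KO tumours. The 3 low WT tumours were again A, B and C. For KO over WT the log2 fold change was 0.38 (SE 0.27; edgeR, adjusted p = 0.402), and -0.20 against WT replicates D and E alone.

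For Tgfbr1 (ENSMUSG00000007613, chromosome 4, 47353222 to 47414931, plus strand, protein coding), the kinase that phosphorylates SMAD3, WT replicates A to E gave 62.7, 61.2, 104, 124 and 106 CPM and KO tumours 93.4 to 155 CPM with a median of 119. Only WT replicates A and B lay below all KO tumours, and 3 KO tumours exceeded all WT tumours. Its log2 fold change of 0.39 (SE 0.21) had a 95% interval from -0.06 to 0.85 (edgeR, adjusted p = 0.265), and was 0.07 against WT replicates D and E alone.

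Tgfbr3 (ENSMUSG00000029287, chromosome 5, 107106570 to 107289629, minus strand, protein coding) encodes betaglycan, a co-receptor without kinase activity. Values of 2.95, 5.67, 4.96, 4.74 and 12.4 CPM were found in WT replicates A to E, and of 4.59 (replicate E) to 13.6 CPM (replicate C), median 10.6, in KO tumours. WT replicate E was high among WT tumours and KO replicate E low among KO tumours, and the groups overlapped through them. Over all tumours the log2 fold change was 0.66 (SE 0.36; edgeR, adjusted p = 0.276), and without WT replicate E it was 1.10 and passed (edgeR, adjusted p = 0.0447, in the fit that called 11.1% of genes), whereas against WT replicates D and E alone it was 0.19 (edgeR, adjusted p = 0.846). Exons of Gm43422 overlap Tgfbr3 on the same strand, so that its count is uncertain.

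Smad3 (ENSMUSG00000032402, chromosome 9, 63646767 to 63757994, minus strand, protein coding), the DNA-binding mediator of the receptor signal, was almost level in 5 of 6 KO tumours. KO replicates A to F had 131, 136, 137, 136, 138 and 87.6 CPM, and WT replicates A to E had 71.6, 69.3, 96.7, 158 and 156 CPM. Replicate F was the exception in KO, and the WT tumours lay on both sides of the main KO cluster. Their log2 fold change was 0.21 (SE 0.24; edgeR, adjusted p = 0.611), and -0.29 against WT replicates D and E alone.

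Smad7 (ENSMUSG00000025880, chromosome 18, 75367529 to 75395935, plus strand, protein coding), the inhibitor that the pathway induces, measured 36.6, 40.0, 54.6, 30.4 and 34.7 CPM in WT replicates A to E. In KO tumours it was between 25.6 CPM in replicate F and 40.3 CPM in replicate E, with a median of 31.8. WT replicate C was the highest tumour and KO replicate F the lowest, and the remaining tumours of both groups intermingled. Smad7 had a log2 fold change of -0.26 (SE 0.18), with a 95% interval from -0.64 to 0.12 (edgeR, adjusted p = 0.375).

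**Figure D2:**
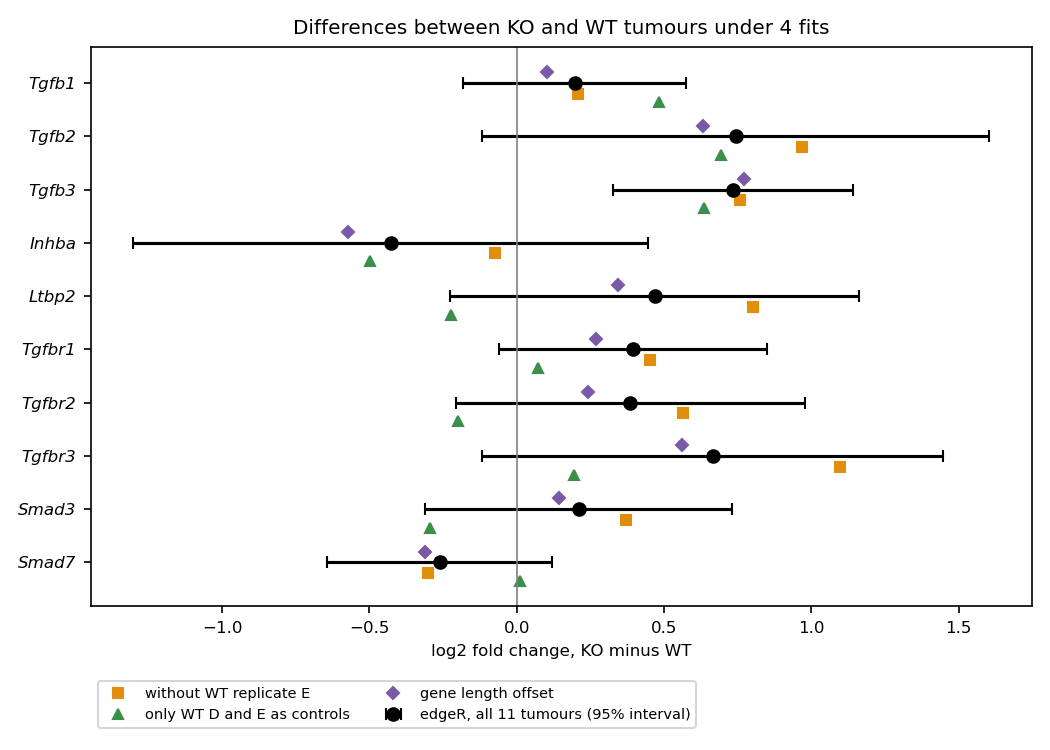
Log2 fold change of KO over WT (horizontal axis) for each member with all tumours (black, with the 95% interval), without WT replicate E (orange), with WT replicates D and E as the only controls (green) and with a gene length offset (purple). The interval of Tgfb3 alone lies above 0, and the green points of Ltbp2, Tgfbr2 and Smad3 lie to the left of 0.

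Levels were compared between genes only after division by exonic length, as CPM per kilobase averaged over the 11 tumours (mean ± SD, n = 11). Tgfb1 was highest at 38.5 ± 6.61 CPM per kilobase. Tgfbr2 (23.1 ± 7.49), Smad3 (21.6 ± 5.85), Tgfb3 (19.7 ± 6.31), Tgfbr1 (16.4 ± 4.21), Inhba (13.6 ± 7.11), Ltbp2 (9.50 ± 3.63) and Smad7 (7.90 ± 1.69) followed in CPM per kilobase. Tgfb2 (1.39 ± 0.728) and Tgfbr3 (1.24 ± 0.558) came last on the same scale. From Tgfbr2 down to Smad7 each neighbour differed from the next by less than the larger of their SDs, as did Tgfb2 from Tgfbr3. The gaps between Tgfb1 and Tgfbr2 and between Smad7 and Tgfb2 exceeded both SDs. The gene with the lowest ligand level, Tgfb2, and the co-receptor Tgfbr3 thus formed a low pair well apart from the other 8 members.

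Of the summed level of the 3 TGF-β ligands per kilobase, Tgfb1 supplied 57.8% to 77.9% in WT tumours (median 68.5%) and 55.8% to 73.0% in KO tumours (median 60.02%). The share of Tgfb3 was 20.8% to 40.9% in WT (median 28.6%) and 25.8% to 41.4% in KO (median 36.9%), and Tgfb2 never supplied more than 4.40%. Shares of both groups overlapped. The sum itself was 38.4 to 56.8 CPM per kilobase in WT and 59.5 to 79.0 CPM per kilobase in KO tumours, without overlap. Among all tested genes, taken singly, 3.60% had no overlap. In WT replicates D and E, whose libraries resemble those of the KO tumours in ribosomal RNA share and length trend, the sum was 38.4 and 53.5. It was formed after the values of its genes were known and is given as a description. The part of library composition in it was not tested. WT replicate D had the lowest sum, through its Tgfb1, and also the highest Tgfb3 share among WT tumours.

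**Figure D3:**
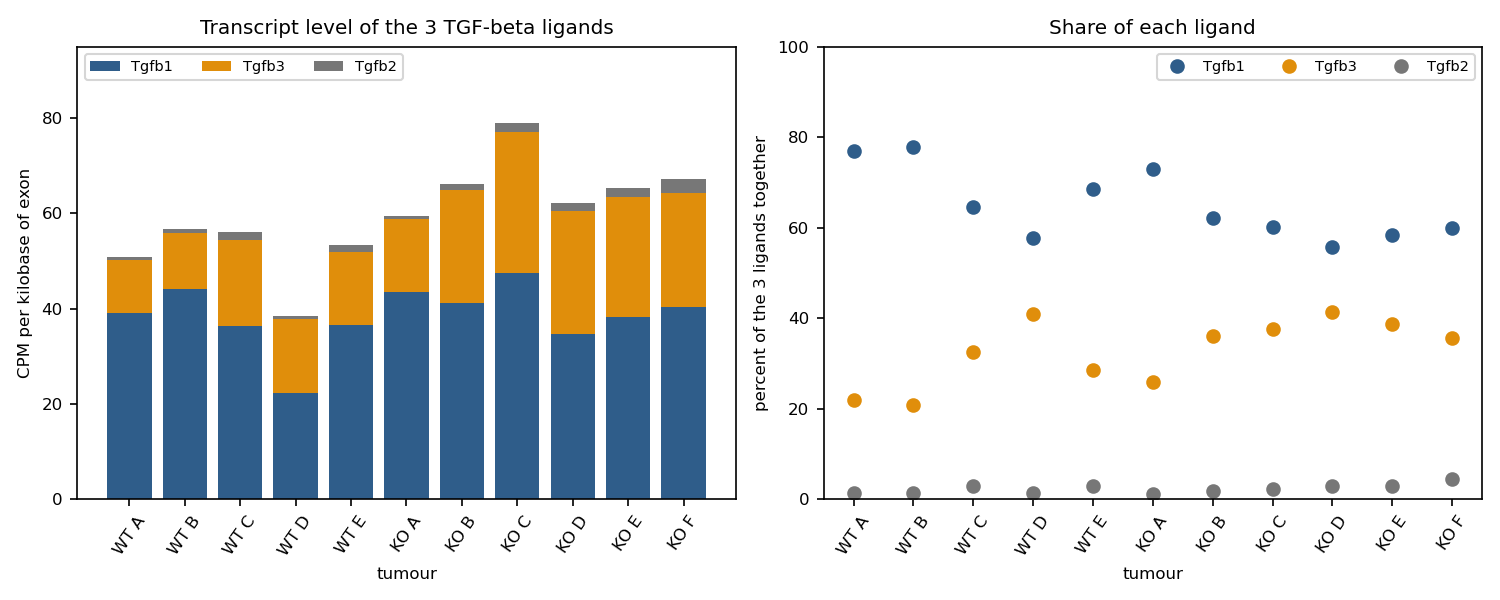
Left, stacked bars of Tgfb1 (blue), Tgfb3 (orange) and Tgfb2 (grey) in CPM per kilobase of exon for each tumour; right, the share of each ligand in percent of the sum. The KO bars reach 59.5 to 79.0 and the WT bars 38.4 to 56.8, and Tgfb1 is the largest share in all 11 tumours.

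The members did not vary as one block across tumours. The 11 tumours differ in library composition as well as in host genotype. Over all of them, the highest of the 45 pairwise correlations of log2(CPM + 1) was that of Ltbp2 with Tgfbr2 (Pearson r = 0.86, Spearman rho = 0.84). For this pair r was 0.58 in the 6 KO tumours alone. Tgfb3 went with Tgfbr1 (r = 0.83, rho = 0.88), with 0.75 in KO tumours alone. Smad3 with Tgfbr2 gave r = 0.73 and rho = 0.64 over all tumours but r = -0.49 in the 6 KO tumours. Inhba with Smad7 moved in the other direction, from r = 0.64 (rho = 0.77) over all tumours to r = 0.97 in KO tumours. These coefficients are descriptions, and with 11 tumours, 3 of them apart, none was tested.

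Library composition moved with several members. The length trend of the libraries correlated with Smad3 at r = 0.88 (rho = 0.78), with Tgfbr1 at 0.86 (rho = 0.67), with Tgfbr2 at 0.83 (rho = 0.55) and with Ltbp2 at 0.82 (rho = 0.57). It did so less with Tgfb3 (r = 0.67, rho = 0.45), and with r = -0.29 for Tgfb1 (rho = -0.41) and -0.02 for Inhba (rho = 0.26). Tgfbr2 also had r = -0.83 (rho = -0.58) with the log2 ribosomal RNA share. All are over n = 11 and carry no test, and the part of library composition in the differences between KO and WT tumours was not tested beyond the fits given. A gene length offset left the direction of every member in place, with a log2 fold change of 0.77 for Tgfb3, 0.24 for Tgfbr2 and 0.14 for Smad3. With a covariate for the ribosomal RNA share it was 0.64 for Tgfb3, 0.29 for Ltbp2, 0.23 for Tgfbr1, 0.12 for Tgfbr2 and 0.0052 for Smad3. The fit without covariate gave 0.73, 0.47, 0.39, 0.38 and 0.21 for these 5 genes.

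**Figure D4:**
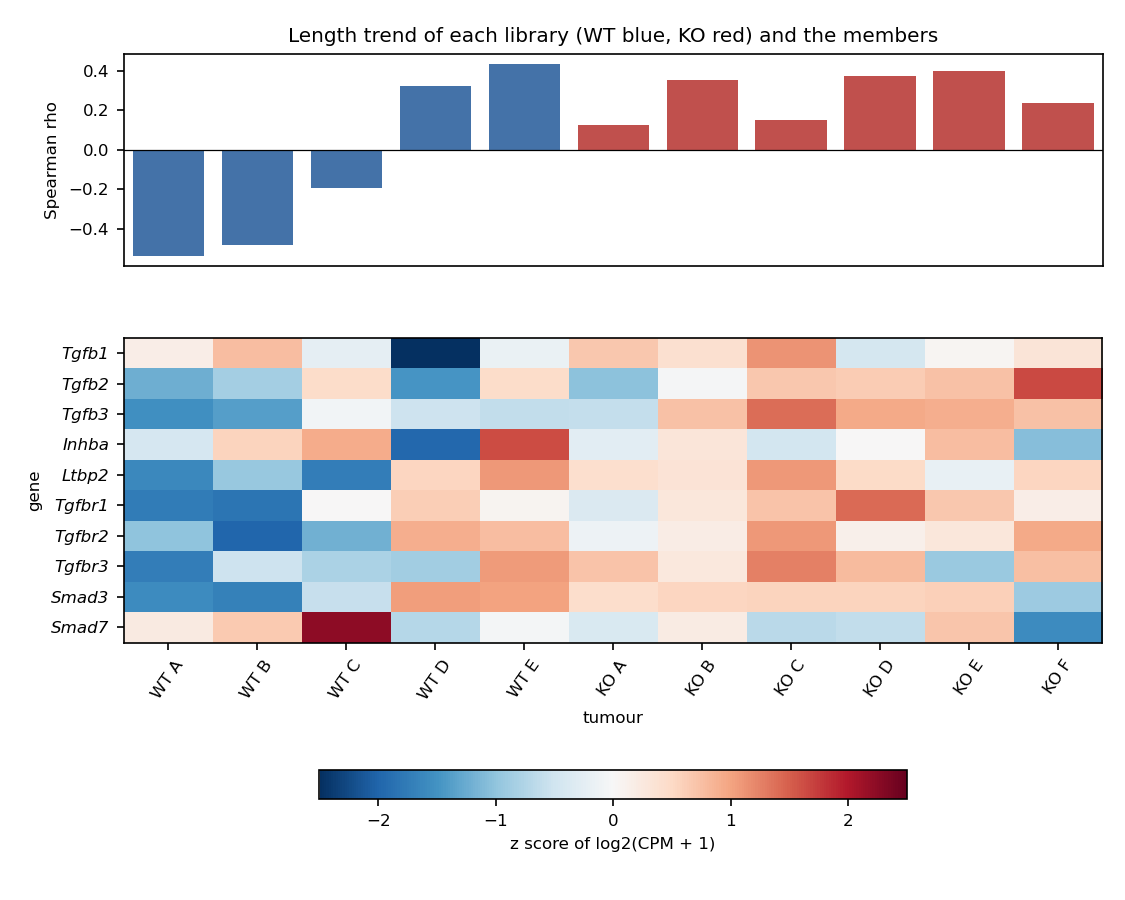
Top, Spearman's rho of each library's deviation with exonic length (WT blue, KO red); bottom, z score of log2(CPM + 1) of each member across the 11 tumours (columns) on a scale from blue (low) to red (high). WT replicates A to C, with negative rho, hold the lowest levels of Tgfbr2, and 3 of the 4 lowest levels of Smad3, while Tgfb1 is lowest in WT replicate D.

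The genes whose pattern over the 11 tumours was most like that of Tgfb3, out of 14139 protein-coding genes ranked by Pearson's r of log2(CPM + 1), were Pcdhga5 (r = 0.93, rho = 0.87), Lrrc14b (r = 0.93, rho = 0.93) and Akap5 (r = 0.93, rho = 0.97). Their log2 fold changes were 1.21, 1.69 and 1.03 (edgeR, adjusted p = 0.195, 0.0796 and 0.205). Pcdhga5 shares exons with its neighbours in the protocadherin cluster, and its count is uncertain. Most like Tgfb1 were Pilra (r = 0.93, rho = 0.90), Gm9733 (r = 0.89, rho = 0.83) and Atf5 (r = 0.88, rho = 0.47). Without the 2 tumours farthest from the Tgfb1 median, r of Atf5 was 0.24, so that this likeness rests on those tumours, while that of Pilra was 0.79.

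Other genes of the pathway were described by lists. Of 121 such genes that are not members, 105 were tested and none passed the adjusted threshold (edgeR). At an unadjusted p under 0.05, 14 were higher and 7 lower in KO, which is 13.3% and 6.67%, against 8.57% higher and 15.5% lower among all genes. DESeq2 called 6 of the 107 to which it gave an adjusted p (5.61%, against 8.06% of all genes), namely Gdf11, Acvr2b, Strap, Zfyve9, Smurf1 and Tnc. The log2 fold change was positive in 68 and negative in 37, with a median of 0.21, where 48.0% of all tested genes were positive. KO and WT tumours did not overlap in Gdf11, which was higher in KO, nor in Acvr2b and Strap, which were lower, compared with 1.59% and 2.01% of all genes.

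The list of the latent complex and its activation holds latent TGF-β binding proteins and their relatives, integrins, proteases and matrix proteins. Of its 20 genes tested, Ltbp2 among them, 19 had a positive log2 fold change, with a median of 0.47, where 48.0% of all tested genes were positive. An unadjusted p under 0.05 was found for 4 (20%), all higher in KO, against 8.57% higher and 15.5% lower among all genes. Mmp2, a gelatinase that can free latent TGF-β, had 376 ± 153 CPM in KO (SD, n = 6) and 184 ± 131 CPM in WT (SD, n = 5). Its log2 fold change was 1.03 (SE 0.39; edgeR, adjusted p = 0.142), and it was 1.58 without WT replicate E (edgeR, adjusted p = 0.0274) and 0.45 against WT replicates D and E alone. Mmp9, the other gelatinase (0.95, SE 0.37; edgeR, adjusted p = 0.150) and Emilin1, a matrix protein that restrains processing of the TGF-β precursor (0.75, SE 0.28; edgeR, adjusted p = 0.137) had log2 fold changes in the same direction, and the 4th gene was the integrin subunit Itgb1. Emilin1 was at 1.04 without WT replicate E (edgeR, adjusted p = 0.0311) and at 0.31 against WT replicates D and E alone.

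The activin, BMP and GDF ligands were split, with 8 positive and 9 negative log2 fold changes in 17 tested of 27 listed (median -0.18). Gdf11, a relative of myostatin that signals through SMAD2 and SMAD3, was at 10.4 to 13.1 CPM in KO and 5.81 to 9.63 CPM in WT tumours (log2 fold change 0.67, SE 0.19; edgeR, adjusted p = 0.0928; DESeq2, adjusted p = 0.00808). Gdf9, a growth factor of the oocyte, was near the floor, with a log2 fold change of -0.95 (edgeR, adjusted p = 0.175), and Bmp2 stood at -0.53 (edgeR, adjusted p = 0.213). Gdf9 was at -0.20 against WT replicates D and E alone.

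Of the other receptors of the superfamily 12 of 14 were tested, with 10 positive log2 fold changes (83.3%, against 48.0% of all tested genes) and a median of 0.24. Acvr2b, an activin and GDF11 receptor, went the other way at 1.05 to 2.17 CPM in KO and 2.78 to 5.06 CPM in WT tumours (log2 fold change -1.03, SE 0.28; edgeR, adjusted p = 0.0928; DESeq2, adjusted p = 0.00970). Acvr1b, the type I receptor of activin, had a log2 fold change of 0.58 (edgeR, adjusted p = 0.187) and the co-receptor Nrp1 one of 0.53 (edgeR, adjusted p = 0.348), which were 0.14 and 0.17 against WT replicates D and E alone.

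In the SMAD family 7 of 8 genes were tested, with Smad3 and Smad7 among them, and the median log2 fold change was 0.03. The inhibitor Smad6 had 0.62 (SE 0.23; edgeR, adjusted p = 0.134), the BMP mediator Smad1 had -0.32 (edgeR, adjusted p = 0.218), and the common partner Smad4 had 0.05 (SE 0.12; edgeR, adjusted p = 0.845). Smad4 was thus measured at 75.7 ± 7.03 CPM in KO (SD, n = 6) and 73.4 ± 5.92 CPM in WT (SD, n = 5). Among 9 tested antagonists and proteoglycans the median log2 fold change was 0.29, and the smallest p-values were those of Chrd, which binds BMPs, at 1.07 (SE 0.39; edgeR, adjusted p = 0.130), and of the matrix proteoglycans Fmod at 0.83 (edgeR, adjusted p = 0.299) and Bgn at 0.59 (edgeR, adjusted p = 0.254). Against WT replicates D and E alone Fmod was at -0.08, Bgn at 0.10 and Smad1 at -0.12.

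Regulators inside the cell, 17 genes, had 2 higher and 3 lower at an unadjusted p under 0.05. These are 11.8% and 17.6%, near the 8.57% and 15.5% of all genes. Strap, a WD-repeat protein that holds SMAD7 at the receptor, was at 145 to 171 CPM in KO and 179 to 374 CPM in WT tumours (log2 fold change -0.74, SE 0.18; edgeR, adjusted p = 0.0847; DESeq2, adjusted p = 0.00874). Zfyve9, the anchor SARA that brings SMADs to the receptor, stood at 0.77 on the log2 scale (SE 0.23; edgeR, adjusted p = 0.0989; DESeq2, adjusted p = 0.0257). Smurf1, a ubiquitin ligase that targets SMADs and the receptor, stood at 0.56 (SE 0.17; edgeR, adjusted p = 0.102; DESeq2, adjusted p = 0.0425). With WT replicates D and E as the only controls these log2 fold changes were -0.40, 0.35 and 0.27.

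Genes that TGF-β is known to induce or repress were evenly divided, with 14 positive and 14 negative log2 fold changes in 28 (Ltbp2 and Smad7 among them) and a median of 0.03. At an unadjusted p under 0.05, 4 were higher and 3 lower in KO (14.3% and 10.7%, against 8.57% and 15.5% of all genes). The matrix protein Tnc had 285 ± 123 CPM in KO (SD, n = 6) and 135 ± 78.6 CPM in WT (SD, n = 5), so that its log2 fold change was 1.08 (SE 0.38; edgeR, adjusted p = 0.126; DESeq2, adjusted p = 0.0482). Tgfbi, a secreted matrix protein, had 0.55 (SE 0.22; edgeR, adjusted p = 0.150) and Cdkn2b, the cell cycle inhibitor p15, had -0.55 (SE 0.19; edgeR, adjusted p = 0.127). Cdkn2b was at -0.17 with the gene length offset, -0.15 against WT replicates D and E alone and -0.32 without WT replicate B. The 7 tested BMP response genes had a median of -0.34, with Id1 at -0.63 (edgeR, adjusted p = 0.337) and Id2 at -0.38 (edgeR, adjusted p = 0.368), both of which were positive against WT replicates D and E alone, and with Smad6 above 0.

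**Figure D5:**
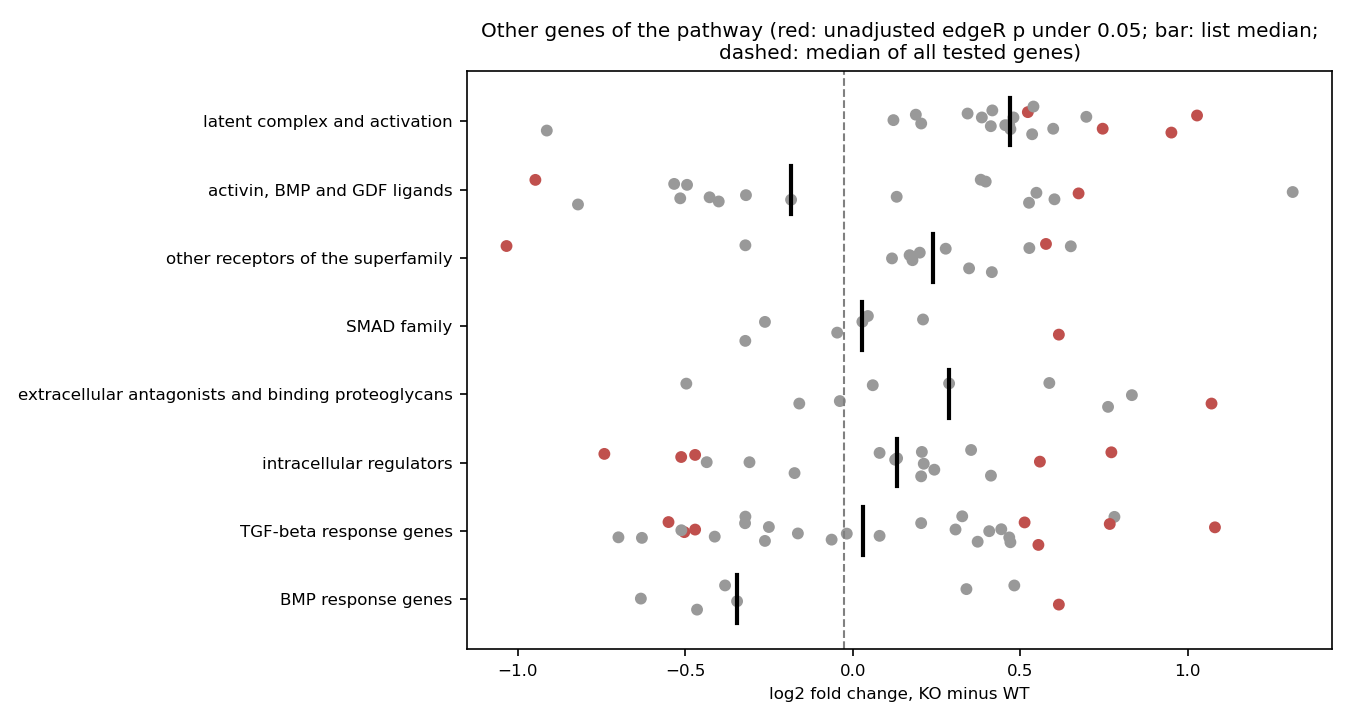
Log2 fold change of KO over WT (horizontal axis) of every tested gene in 8 pathway lists; red points have an unadjusted edgeR p under 0.05, black bars are list medians and the dashed line is the median of all tested genes. Of the 20 genes of the latent complex list 19 lie to the right of 0, whereas the 28 TGF-β response genes are divided 14 to 14. Among all tested genes 48.0% had a log2 fold change above 0.

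The tumours also differed in cell type markers, and in bulk RNA fewer cells of a type and less RNA per cell cannot be told apart. The summed CPM of 10 fibroblast markers was 4559 to 9681 in KO and 2640 to 9569 in WT tumours, with no marker at an unadjusted p under 0.05. That of 8 carcinoma epithelium markers was 2695 to 5447 in KO and 3088 to 9373 in WT tumours, with 3 markers lower in KO at an unadjusted p under 0.05. Macrophage (1661 to 3000.3 in KO, 1249 to 2181 in WT, 3 of 7 higher), neutrophil (268 to 2234 in KO, 157 to 1006 in WT, 4 of 6 higher) and B cell markers (55.2 to 133 in KO, 14.9 to 50.2 in WT, 6 of 6 higher) were counted by the same unadjusted rule and in summed CPM. Endothelial markers had 1 of 7 higher and adipocyte markers 2 of 4 tested higher. None of 7 T cell and 5 mesothelial markers had an unadjusted p under 0.05, nor did the 1 islet marker tested of 6 listed. Acinar and platelet markers had 1 lower each among 3 tested of 7 listed. Summed acinar markers ran from 7.28 to 640 CPM in KO and from 12.9 to 1700 CPM in WT tumours, highest in WT replicate E. Summed islet markers reached 79.4 CPM in KO replicate F and 323 CPM in WT replicate E. By the same unadjusted rule 8.57% of all tested genes were higher and 15.5% lower in KO, so that single markers past it are common. Of the 6 B cell markers, whose median log2 fold change was 2.36, 3 were higher in KO without overlap, against 1.59% of all tested genes. No marker passed the adjusted threshold (edgeR), and Gp1bb of the platelet list was at 0 in every tumour. The part of these cell types in the levels of Tgfb3 and the other members was not tested.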

How the data were processed

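RNA from pieces of 11 tumours was made into strand-specific libraries (NEB Ultra II directional), sequenced, trimmed with Trimmomatic, aligned with HISAT2 2.1.0 to mm10 (GRCm38) and counted per gene with HTSeq 0.11.2, which used uniquely aligned reads. The authors deposited raw counts per gene, and separately a normalised signal, which for every gene equalled the raw count divided by 1 size factor per tumour (0.514 to 1.42) and was not tested. Symbols, coordinates and exonic lengths came from GENCODE M21. Counts were tested in R 4.3.3 with edgeR 4.0.16 (TMM, filterByExpr, quasi-likelihood F-test, no covariate), KO against WT, with SE = |log2 fold change| / √F and intervals at 95%. DESeq2 1.42.0 and 18 other settings were alternatives. CPM used TMM-scaled totals, and promoters and motif windows came from RefSeq GRCm38.p6. The members, gene lists and tests were chosen with earlier results of these data known.

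Genes named were the 10 members, the 3 genes of each pathway list with the smallest p, any gene passing the threshold, the 3 genes most correlated with Tgfb3 (the member with the smallest p) and with Tgfb1, and Pkn2. The fits were tested on simulated counts that held larger changes than any member showed. The simulated libraries did not hold the differences in length trend and ribosomal RNA share of WT replicates A to C. That test therefore does not show how those differences act on the calls. Letters A to E mark different animals in the 2 groups. Replicates were separate tumours.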

Additional observations from a re-analysis of the deposited data

Results flagged for a closer look

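Within each group the highest and lowest tumour were compared with the rest of that group by Dixon's ratio, the gap to the nearest tumour over the whole range, taken on log2(CPM + 1), in 20 sets of values (10 members in 2 groups). Chance passes about 1 set in 20. Tgfb1 in WT replicate D, at 111.9 CPM, lay below the other 4 WT tumours (ratio 0.712, critical value 0.710; 0.639 on CPM, which does not pass). Tgfb3 in KO replicate A, at 51.89 CPM, lay below the other 5 KO tumours (ratio 0.668, critical value 0.625; 0.594 on CPM, which does not pass). Smad3 in KO replicate F, at 87.65 CPM, lay below KO replicates A to E, which spanned 131 to 138 CPM (ratio 0.887, critical value 0.625; 0.863 on CPM). On CPM, Tgfbr3 in WT replicate E (12.35 CPM) was at the critical value of 0.710.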

How the results depend on the processing

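Over 19 alternatives the direction of Tgfb1, Tgfb2, Tgfb3, Inhba, Tgfbr1 and Tgfbr3 held throughout, and Tgfb3 had an unadjusted p under 0.05 in all 19. So had Gdf11, Acvr2b and Strap, which like Tgfb3 were named for a small p. The alternatives reuse the same tumours, so these counts are no separate support, and the share over all genes was not counted. Calls over all genes depended on the setting: 3 higher and 0 lower by edgeR, 595 and 900 by DESeq2, and 39 and 6 with no expression filter. They were 0 and 0 with at least 10 counts in every tumour, and 68 and 28 with a gene length offset. With WT replicates D and E as the only controls they were 4 and 3, and with a covariate for the ribosomal RNA share 2 and 1. Leaving out 1 tumour gave 0 to 608 higher and 0 to 1248 lower, the most without WT replicate E, and 203 and 651 without WT replicate D; without KO replicate F it gave 30 and 2, and every other omission gave 0 higher and 0 lower. Members called were 0 by edgeR, 1 by DESeq2 (Tgfb3, log2 fold change 0.75) and 0 to 2 on leaving out a tumour, the 2 being Tgfb3 (0.76) and Tgfbr3 (1.10) without WT replicate E. Leaving out a tumour moved Tgfb3 between 0.65 and 0.83, Tgfbr3 between 0.49 and 1.10, Tgfb1 between 0.07 (without WT replicate D) and 0.29, Inhba between -0.67 (without WT replicate D) and -0.07 (without WT replicate E), Ltbp2 between 0.30 and 0.80, Tgfbr2 between 0.22 and 0.60, Smad3 between 0.08 and 0.38 and Smad7 between -0.34 and -0.11. With WT replicates D and E as the only controls the log2 fold changes turned for Ltbp2 (-0.22), Tgfbr2 (-0.20), Smad3 (-0.29), Smad7 (0.012), Fmod (-0.076), Id1 (0.61) and Id2 (0.44), and that of Smad4 ran from -0.0012 (without KO replicate E) to 0.073 on leaving out a tumour; the cause was not tested. Pathway genes called were 0 by edgeR, 6 by DESeq2 (5.61%, against 8.06% of all genes) and 0 to 10 on leaving out a tumour (2 without WT replicate D, 1.90% against 5.07% of all genes; 10 without WT replicate E, 9.52% against 11.1%). At an unadjusted p under 0.05, the 14 higher became 7 against WT replicates D and E, 7 with the ribosomal covariate and 9 to 32 on leaving out a tumour (9 without WT replicate A, 32 without WT replicate E). The 7 lower became 3 with no filter, 3 with the ribosomal covariate and 3 to 13 on leaving out a tumour (13 without WT replicate D). By Spearman's rho, 1 of the 3 genes most like Tgfb3 and 1 of the 3 most like Tgfb1 stayed.

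The shared letters do not pair the tumours: deviations of same-letter tumours correlated at 0.118, 0.070, -0.135, 0.096 and 0.033 for A to E. With the letter as a replicate block edgeR called 8 genes higher and 1 lower, and no member (Tgfb3, adjusted p = 0.217). In that fit 16 pathway genes were higher and 4 lower at an unadjusted p under 0.05.

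The lowest count of any member in any tumour was 53, for Tgfb2, and the effect of depth was not tested.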
